A study of Homo sapiens with 6 samples.

Results

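The 10 genes described here are the coactivators YAP1 and WWTR1 (the gene of TAZ), the DNA-binding factors TEAD1, TEAD2, TEAD3 and TEAD4, and the target genes CYR61, CTGF, ANKRD1 and AMOTL2. They were taken by name from the 56303 gene rows of the count table, where CCN1 and CCN2 stand under their older symbols CYR61 and CTGF. All 10 had a row, and 9 of them had enough counts to be tested.

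The Hippo pathway is a kinase cascade in which MST kinases activate LATS kinases, and LATS kinases phosphorylate YAP and TAZ and so hold them in the cytoplasm. YAP and TAZ bind no DNA themselves, and in the nucleus they act through TEAD factors on genes such as CTGF and CYR61, which encode secreted matrix proteins. In the intestine YAP and TAZ are known for their part in regeneration and in colorectal tumours, and much of their regulation lies in phosphorylation and location, which RNA counts do not show.

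SW480 is an established human colorectal cancer cell line. mRNA was sequenced from 3 libraries of cells with a non-silencing hairpin (shCtrl, labelled WT) and from 3 libraries of cells with a hairpin against RBM39 (shRBM39, labelled as the knockdown), a splicing factor. The hairpins were delivered by lentivirus and the methods name stable clonal lines under puromycin, with 1 hairpin per group, so an effect of RBM39 and an effect of the hairpin or of the line cannot be told apart. The methods name 3 replicate experiments per group, but no label ties a library to its own culture, so the p-values measure the spread between these libraries.

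Total counts ran from 18042924 to 20428901 per library. RBM39 itself was lower in every knockdown library. It lay at 441, 448 and 435 CPM under the control hairpin and at 266, 276 and 292 CPM under its own, a log2 fold change of -0.67 ± 0.04 (SE; edgeR quasi-likelihood test, adjusted p = 1.24e-16). CPM, the share of a library's counts on a fixed common scale, carry TMM factors, and a gene was called changed when its adjusted p was under 0.05. Of 18243 tested genes 59.1% were called, 29.2% higher and 29.9% lower in shRBM39, and the median log2 fold change over all of them was -0.01. The 5 epithelial markers EPCAM, KRT8, KRT18, KRT19 and CDH1 all had at least 10 counts in every library, with a summed level of 11010 to 11830 CPM in shCtrl and 14120 to 14680 CPM in shRBM39. Nearly all of that sum is keratin, with KRT8 and KRT18 called higher (log2 fold changes of 0.43 and 0.24), while CDH1 was called lower, from 88.7 to 89.8 CPM down to 66.1 to 70.0 CPM (log2 fold change -0.39, adjusted p = 1.03e-09), and EPCAM and KRT19 were not called. Of 3 intestinal markers, CDX2 and VIL1 passed that minimum and CDX1 had at most 2 counts, with sums of 712 to 717 CPM in shCtrl and 637 to 672 CPM in shRBM39. VIL1 makes up most of these sums, and CDX2, a transcription factor of intestinal identity, fell from 21.5, 22.4 and 21.3 CPM to 5.56, 4.65 and 4.65 CPM (log2 fold change -2.13 ± 0.09 (SE), adjusted p = 2.44e-20). The leukocyte markers PTPRC and CD3E had at most 1 count in any library. COL1A2 had at most 3 counts and CDH5 at most 1, while the summed fibroblast markers (COL1A1, COL1A2, PDGFRB) lay at 6.80 to 7.16 CPM in shCtrl and 9.60 to 12.5 CPM in shRBM39, and the summed endothelial markers (PECAM1, VWF, CDH5) at 3.47 to 4.58 and 6.45 to 7.96 CPM. COL1A1, PECAM1 and VWF were each called higher (log2 fold changes of 0.81, 0.79 and 1.39), with VWF at 10 to 34 counts per library. PDGFRB was not called, and COL1A2 and CDH5 were not tested. The part of these shifts in the results below was not tested. In such bulk samples fewer cells of a kind and less RNA per cell cannot be told apart.

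Of the 9 tested members, 5 were called, a share near the 59.1% of all tested genes. TEAD2 alone was higher in shRBM39 (29.2% of all tested genes were), and TEAD3, TEAD4, CTGF and AMOTL2 were lower (29.9% of all tested genes were). YAP1, WWTR1, TEAD1 and CYR61 were not called. The groups did not overlap for TEAD2, TEAD3, TEAD4 and CTGF, against 63.3% of all tested genes. The median log2 fold change of the 9 members was -0.08, beside -0.01 over all tested genes.

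**Figure D1:**
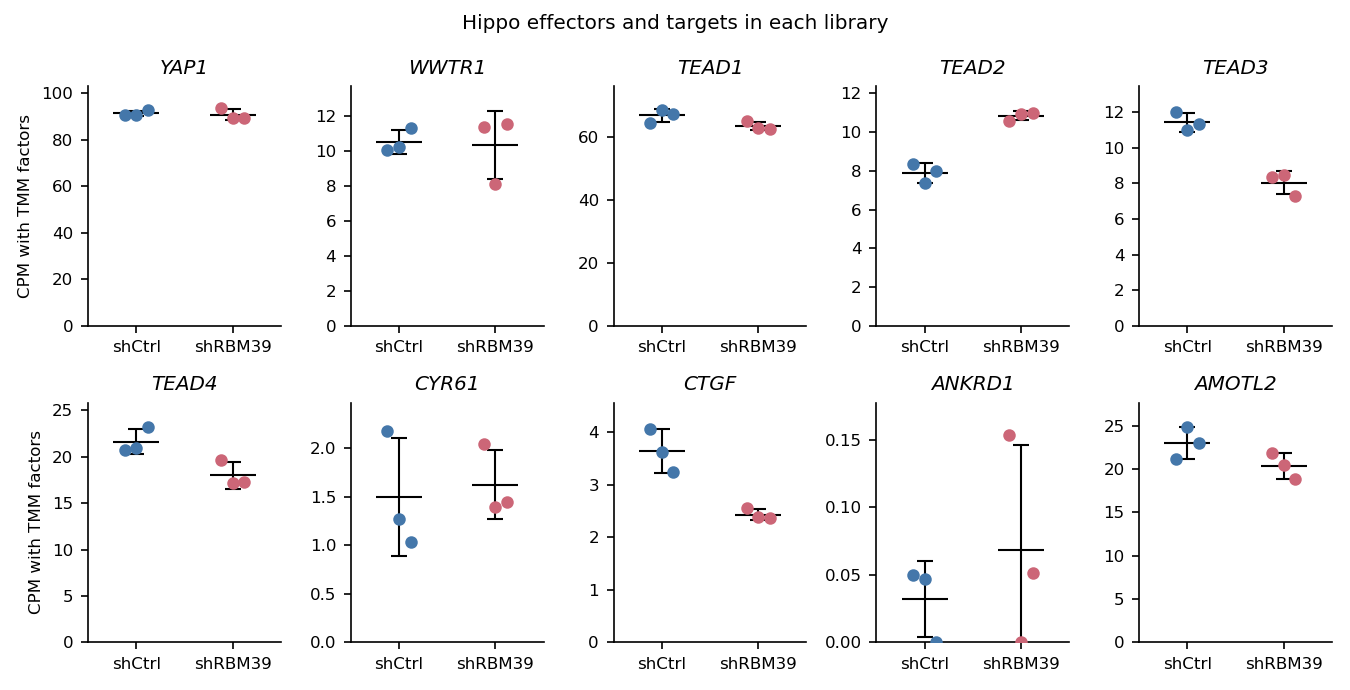
CPM with TMM factors (y axis, linear from 0, own scale in each panel) for the 10 genes in the 3 shCtrl and the 3 shRBM39 libraries (points), with the mean and SD of each group (bars). TEAD2 stands higher in all shRBM39 libraries, TEAD3, TEAD4 and CTGF stand lower in all of them, and the points of the other genes overlap; ANKRD1 rests on 0 to 3 counts per library.

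YAP1 (chr11:102110461-102233423, GRCh38) encodes the main coactivator of the pathway and had the highest level per length of the 10 genes. Its level was 90.6, 90.9 and 92.8 CPM with the control hairpin, against 93.6, 89.6 and 89.6 CPM with the RBM39 hairpin. The groups overlapped, and the values lay within a narrow band in all 6 libraries. The log2 fold change was -0.008 ± 0.041 (SE), with a 95% interval from -0.09 to 0.08 (adjusted p = 0.886). This depended on the scaling, because TMM and library totals differ here: with library totals alone the median of all tested genes was -0.14 on the log2 scale in place of -0.01, and YAP1, at -0.13, was then called lower (adjusted p = 0.00604).

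WWTR1 (chr3:149517235-149736714) encodes TAZ, the paralog of YAP. It lay at 10.0, 10.2 and 11.3 CPM in shCtrl and at 11.3, 8.08 and 11.5 CPM in shRBM39. Replicate 2 of shRBM39 was the lowest of the 6 libraries and the other two were above all shCtrl libraries. The log2 fold change was -0.02 ± 0.10 (SE), with a 95% interval from -0.23 to 0.19 (adjusted p = 0.897), and it was 0.13 without that library (adjusted p = 0.272). The log2 ratio of YAP1 to WWTR1 counts, which no scaling of the library can change, was 3.18, 3.15 and 3.04 in shCtrl and 3.05, 3.47 and 2.96 in shRBM39, with overlapping groups. Its difference of 0.04 did not pass the exact two-sided permutation test (p = 0.9, adjusted p = 0.9 over both ratios tested here).

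The TEAD genes encode the DNA-binding partners of YAP and TAZ, and they did not move together. TEAD1 (chr11:12674591-12944483) lay at 64.5, 68.5 and 67.4 CPM in shCtrl and at 64.9, 62.9 and 62.4 CPM in shRBM39. Replicate 1 of shRBM39 lay above replicate 1 of shCtrl, so that the groups overlapped. The log2 fold change of TEAD1 was -0.08 ± 0.04 (SE), with a 95% interval from -0.17 to 0.01 (adjusted p = 0.139). With library totals it was -0.20 (adjusted p = 0.000258) and with upper-quartile scaling -0.11 (adjusted p = 0.0339), both called lower. TEAD1 was also called lower on the log2(RPKM + 1) and log2(RPKM + 0.1) scales (adjusted p = 0.0122 and 0.0114). After a correction for GC content and length its log2 fold change was 0.01 (adjusted p = 0.8).

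TEAD2 (chr19:49340595-49362457) was the member that rose. Its level was 8.34, 7.35 and 7.97 CPM in shCtrl and 10.6, 10.9 and 11.0 CPM in shRBM39. All shRBM39 libraries were above all shCtrl libraries. The rise was 1.37-fold, a log2 fold change of 0.46 ± 0.09 (SE; adjusted p = 6.41e-05).

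TEAD3 (chr6:35473597-35497076) went the other way. It lay at 12.01, 11.0 and 11.3 CPM in shCtrl and at 8.37, 8.48 and 7.28 CPM in shRBM39. No shRBM39 library reached the lowest shCtrl library. TEAD3 was at 0.703 of its control level, a log2 fold change of -0.51 ± 0.09 (SE; adjusted p = 1.57e-05).

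TEAD4 (chr12:2959330-3040673) had the highest level per length of the TEAD genes in both groups. It lay at 20.7, 21.0 and 23.2 CPM in shCtrl and at 19.7, 17.1 and 17.2 CPM in shRBM39. The groups did not overlap, and replicate 1 of shRBM39 came nearest to the control libraries. TEAD4 was at 0.835 of its control level, a log2 fold change of -0.26 ± 0.07 (SE; adjusted p = 0.00208). The calls of TEAD2, TEAD3 and TEAD4 were held under every alternative scaling, filter, tool and left-out library that was run, and were lost when the change was tested against a log2 fold change of 0.5.

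Levels of different genes were compared per kilobase of merged exon (RPKM, which the authors scaled to library totals). The summed RPKM of the TEAD genes was 22.8, 23.1 and 24.2 in the shCtrl libraries and 20.4, 19.2 and 18.9 in the shRBM39 libraries. The means were 23.4 ± 0.741 and 19.5 ± 0.804 (SD, n = 3 each), a difference of -3.87 RPKM. With TMM factors the means were 22.4 ± 0.639 and 20.4 ± 0.806 (SD, n = 3 each), a difference of -2.04 RPKM, so the size of the decrease depended on the scaling. Within this sum, TEAD4 took 42.4% ± 1.49 in shCtrl and 38.9% ± 1.67 in shRBM39, and TEAD3 took 16.8% ± 0.940 and 13.0% ± 0.869 (SD, n = 3 each). TEAD2 took 11.8% ± 0.747 in shCtrl and 17.9% ± 1.07 in shRBM39 (SD, n = 3 each). TEAD1 took 29.0% ± 1.15 and 30.3% ± 0.547 (SD, n = 3 each), with overlapping groups. The order of TEAD2 and TEAD3 thus turned, with TEAD3 above TEAD2 in every shCtrl library and below it in every shRBM39 library.

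**Figure D2:**
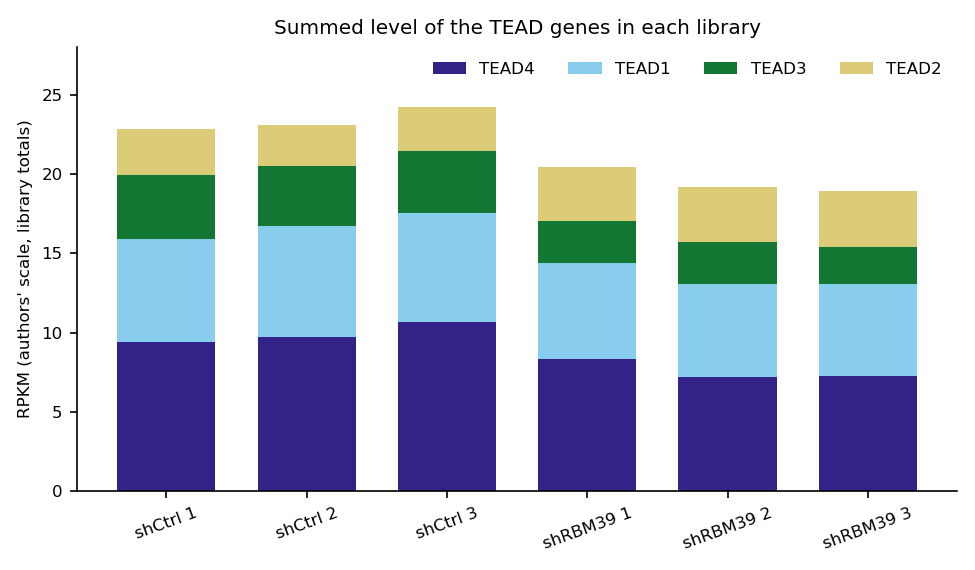
RPKM (y axis, from 0) of TEAD4, TEAD1, TEAD3 and TEAD2, stacked from the bottom for each of the 6 libraries (x axis). The stacks reach 22.8 to 24.2 in shCtrl and 18.9 to 20.4 in shRBM39, and the top segment, TEAD2, is wider in every shRBM39 library.

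The order of the 10 genes per length in shCtrl ran from YAP1 (15.1 RPKM) through TEAD4 (9.92), TEAD1 (6.78), AMOTL2 (4.01), TEAD3 (3.91), TEAD2 (2.76), CTGF (1.63), WWTR1 (1.30) and CYR61 (0.634 RPKM) to ANKRD1 (0.0170 RPKM). The ranges of AMOTL2 and TEAD3 overlapped, and all other neighbours in shCtrl were apart in every library. In shRBM39 the order was YAP1 (13.8 RPKM), TEAD4 (7.59), TEAD1 (5.90), TEAD2 (3.48), AMOTL2 (3.26), TEAD3 (2.53), WWTR1 (1.17), CTGF (0.997), CYR61 (0.634) and ANKRD1 (0.0331 RPKM). There TEAD2 and AMOTL2 overlapped, as did WWTR1 and CTGF.

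CTGF (chr6:131948176-131951373) and CYR61 (chr1:85580761-85583962) are the most used reporter targets of YAP and TAZ, and both encode secreted matrix proteins of the CCN family. The letters GGAATG, or CATTCC on the other strand, are a core of the site that TEAD factors bind. Both strands of the 250 bases before the transcript start were searched for these letters in the RefSeq promoter table (GRCh38.p14), in which 7 of the 10 members were matched, with 10 windows. The windows of CTGF and YAP1 are shown because they carry the letters and belong to a target that fell and to the coactivator that was not called. Capitals mark each copy, and both run 5′ to 3′ on the strand of the gene (CTGF chr6:131951373-131951622, minus strand, and YAP1 chr11:102110197-102110446, plus strand).
CTGF: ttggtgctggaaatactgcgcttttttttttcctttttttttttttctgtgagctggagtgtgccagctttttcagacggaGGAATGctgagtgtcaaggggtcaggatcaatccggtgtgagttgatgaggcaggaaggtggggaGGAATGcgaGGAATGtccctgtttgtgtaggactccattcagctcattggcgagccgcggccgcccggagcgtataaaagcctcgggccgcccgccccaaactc
YAP1: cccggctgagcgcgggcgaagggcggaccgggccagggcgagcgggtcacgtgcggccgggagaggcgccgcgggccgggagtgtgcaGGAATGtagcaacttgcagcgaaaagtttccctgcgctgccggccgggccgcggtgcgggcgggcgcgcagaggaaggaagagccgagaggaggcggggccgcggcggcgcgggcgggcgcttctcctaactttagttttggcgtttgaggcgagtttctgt
The CTGF window held 3 copies, starting 169, 104 and 95 bases before the start, and the YAP1 window held 1 copy, starting 162 bases before it. ANKRD1 had 2 copies, starting 220 and 128 bases before its start, and 1 of the AMOTL2 windows had 1 copy on the other strand, starting 69 bases before. No copy was found in the windows of WWTR1, TEAD2 and TEAD3. At least 1 copy was present in 4 of the 10 members' windows and in 11.9% of all 35116 windows, at least 2 copies were present in 0.928% of all windows and at least 3 in 0.0797%. A match is a run of letters and does not show binding.

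CTGF fell in shRBM39. Its level was 4.07, 3.63 and 3.25 CPM in shCtrl, from 82, 77 and 66 counts, and 2.55, 2.38 and 2.38 CPM in shRBM39, from 50, 41 and 46 counts. All shRBM39 libraries were below all shCtrl libraries. CTGF was at 0.669 of its control level, a log2 fold change of -0.58 ± 0.16 (SE; adjusted p = 0.00221).

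CYR61 was measured with fewer counts and showed no change that the replicates could resolve. It had 44, 27 and 21 counts in shCtrl (2.18, 1.27 and 1.03 CPM) and 40, 24 and 28 counts in shRBM39 (2.04, 1.39 and 1.45 CPM). Replicate 1 was the highest library of each group and the groups overlapped. The log2 fold change was 0.13 ± 0.25 (SE), with a 95% interval from -0.37 to 0.64 (adjusted p = 0.666). It was 0.51 without shCtrl replicate 1 (adjusted p = 0.111), and it was -0.07 without shCtrl replicate 3 (adjusted p = 0.844) or without shRBM39 replicate 1 (adjusted p = 0.862).

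The log2 ratio of CTGF to CYR61 counts was 0.90, 1.51 and 1.65 in shCtrl and 0.32, 0.77 and 0.72 in shRBM39. Every shRBM39 library was below every shCtrl library. The difference was -0.75, and the exact two-sided permutation test gave p = 0.1, the smallest p that 3 against 3 libraries allow (adjusted p = 0.2 over both ratios tested here). The sum and the shares of the TEAD genes, tested in the same way, were not part of this adjustment.

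AMOTL2 (chr3:134355874-134375479) encodes an angiomotin, a junction protein that binds YAP and is also a YAP target. Its level was 21.1, 24.9 and 23.0 CPM in shCtrl and 21.9, 20.5 and 18.9 CPM in shRBM39. The groups overlapped through replicate 1 of each. The log2 fold change was -0.18 ± 0.07 (SE; adjusted p = 0.0305), the weakest call among the members. It was lost with DESeq2 (adjusted p = 0.121), with a replicate block and GC and length correction together (-0.16, adjusted p = 0.0503), at an adjusted p under 0.01 and when tested against a minimum change of 0.5 (log2). It was also lost without shCtrl replicate 2 (-0.12, adjusted p = 0.205), shCtrl replicate 3 (-0.17, adjusted p = 0.0562), shRBM39 replicate 2 (-0.17, adjusted p = 0.0728) or shRBM39 replicate 3 (-0.12, adjusted p = 0.184).

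ANKRD1 (chr10:90912096-90921276), which encodes a muscle ankyrin repeat protein and is a strong YAP target in many cells, was at the edge of detection. It had 1, 1 and 0 counts in shCtrl and 3, 0 and 1 counts in shRBM39. The summed counts were 2 (95% exact Poisson interval 0.242 to 7.23) and 4 (1.09 to 10.2), which covers counting error only. No difference was detectable at this depth, where 3 counts stand for 0.141 to 0.174 CPM per library.

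**Figure D3:**
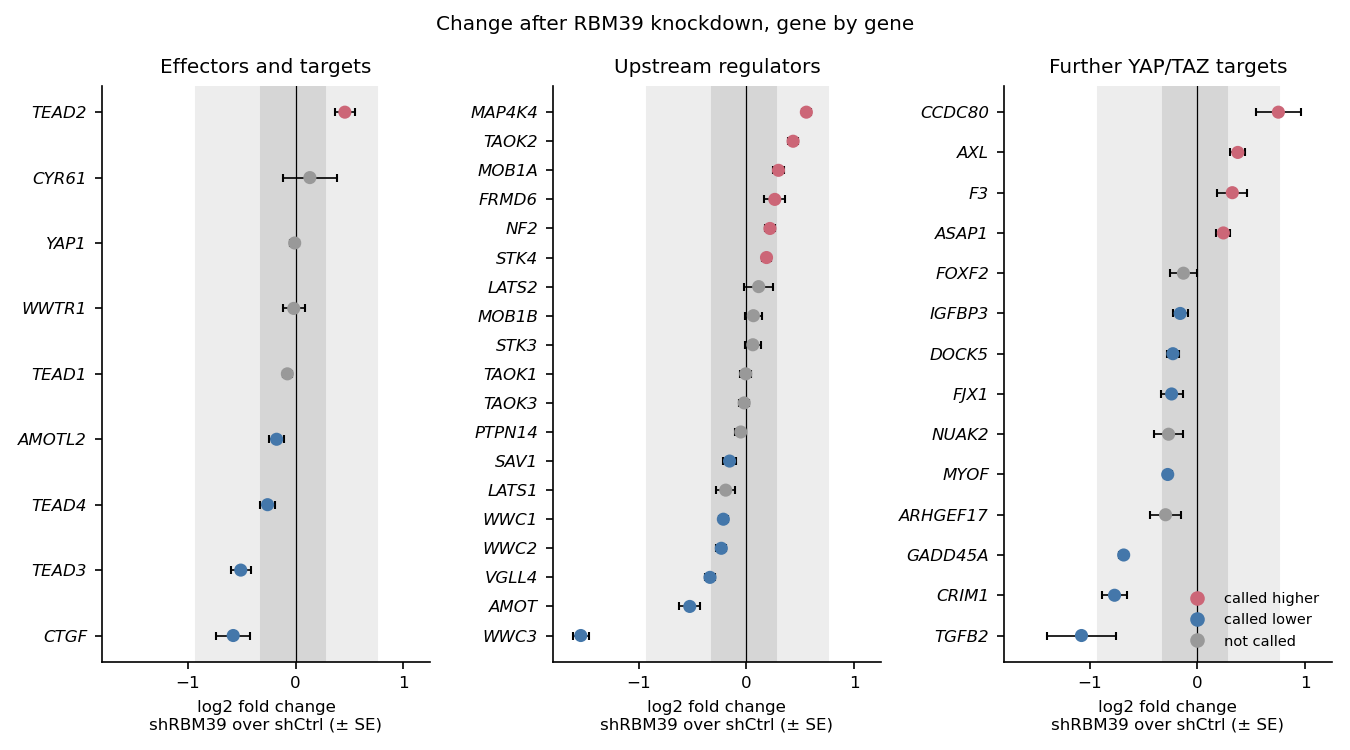
Log2 fold change of shRBM39 over shCtrl (x axis) with its SE (bars) for the tested genes (y axis) of the members, the upstream regulators and the further targets. Red and blue points were called higher and lower, grey points were not called, and the dark and light bands hold the middle 50% and the middle 90% of all tested genes, from -0.32 to 0.28 and from -0.93 to 0.76. WWC3, CRIM1 and TGFB2 are the called points farthest to the left, and of these WWC3 and TGFB2 lie outside the light band.

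Regulators upstream of YAP and TAZ were described with a list of 23 genes. It holds the MST, LATS, TAO and MAP4K4 kinases, their adaptors, the KIBRA family, merlin (NF2) and angiomotins. The VGLL cofactors, which bind TEAD and are not upstream of YAP and TAZ, are counted with this list. Of the 23 genes, 19 were tested and 12 were called, 6 higher and 6 lower, against 59.1% called of all tested genes, and 7 were not called. The median log2 fold change was -0.007. The split depended on the scaling, with 3 higher of 13 called under library totals and 9 higher of 14 called after the GC and length correction. The 5 called genes of largest change are given here.

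WWC3, a member of the KIBRA family of scaffolds that promote LATS activity, fell most. It lay at 26.0, 27.1 and 25.1 CPM in shCtrl and at 9.44, 9.41 and 8.05 CPM in shRBM39, with a wide gap between the groups. It was at 0.344 of its control level, a log2 fold change of -1.54 ± 0.08 (SE; adjusted p = 2.72e-18), with only 1.1% of all tested genes at or below it. Its relatives WWC1 and WWC2 fell by 0.22 and 0.23 on the log2 scale (adjusted p = 0.000112 and 3.04e-05), which are named here after their values were seen.

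MAP4K4, a kinase that acts on LATS in parallel to the MST kinases, rose from 204, 221 and 208 CPM to 322, 313 and 296 CPM. The groups were well apart, at a log2 fold change of 0.56 ± 0.04 (SE; adjusted p = 4.03e-14). TAOK2, a kinase that activates MST kinases, rose from 71.7, 81.7 and 74.8 CPM to 107, 101 and 101 CPM, without overlap, at 0.43 ± 0.05 (SE; adjusted p = 4.18e-10). AMOT, the founding angiomotin, fell from 9.78, 9.56 and 10.1 CPM to 6.38, 7.03 and 7.02 CPM, without overlap, at -0.53 ± 0.10 (SE; adjusted p = 1.88e-05). VGLL4, which competes with YAP for TEAD, fell from 44.5, 45.7 and 47.1 CPM to 36.3, 37.4 and 34.9 CPM, without overlap, at -0.34 ± 0.05 (SE; adjusted p = 4.48e-07). VGLL1 and VGLL2 had 0 counts in every library, which, at 3 counts, allows up to 0.174 CPM in the shallowest library, AMOTL1 had 1 count in all and VGLL3 had 5, and none of the 4 was tested.

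A further list of 16 genes from a widely used YAP and TAZ target signature was described in the same way. Genes of that signature that are members or on the upstream list were left out of it, so the counts cover only a part of the signature. Of these, 14 were tested and 11 were called, 4 higher and 7 lower, against 59.1% called, 29.2% higher and 29.9% lower of all tested genes, and 3 were not called. The median log2 fold change was -0.23, beside -0.01 over all tested genes. Under library totals 2 of 11 called genes were higher, after the GC and length correction 3 of 9, and with DESeq2 3 of 8.

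TGFB2, a secreted growth factor, had few counts and lay at 1.09, 1.13 and 0.837 CPM in shCtrl and at 0.357, 0.465 and 0.620 CPM in shRBM39. The groups did not overlap, at a log2 fold change of -1.08 ± 0.32 (SE; adjusted p = 0.0043), which was -0.15 on the log2(RPKM + 1) scale (adjusted p = 0.00961). CRIM1, a transmembrane protein that binds BMPs, fell from 7.39, 8.01 and 7.19 CPM to 3.93, 4.65 and 4.70 CPM, without overlap, at -0.77 ± 0.12 (SE; adjusted p = 8.84e-07). GADD45A, a stress-responsive cell cycle regulator, had the highest CPM of the 5 called genes given here, though not of the whole list. It fell from 177, 176 and 169 CPM to 106, 110 and 109 CPM, without overlap, at -0.69 ± 0.04 (SE; adjusted p = 6.79e-17). CCDC80, a matrix protein, went the other way, from 1.44, 1.04 and 1.53 CPM to 2.14, 2.44 and 2.17 CPM, without overlap, at 0.75 ± 0.21 (SE; adjusted p = 0.00237), a call that was lost on the log2(RPKM + 1) scale, which compresses low genes (0.07, adjusted p = 0.0765). AXL, a receptor tyrosine kinase, rose from 16.1, 15.9 and 16.3 CPM to 21.4, 20.1 and 21.1 CPM, without overlap, at 0.38 ± 0.07 (SE; adjusted p = 1.37e-05). RBMS3 and NT5E were not tested, NT5E with 6 to 9 counts per shCtrl library and 3 to 4 per shRBM39 library.

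The deposited splicing table holds 1582 selected events of 1198 genes, with 3 libraries in each of a group 1 and a group 2. Neither name is tied to a hairpin in the table, so the values are given under those names and were not tested. Of the 10 members, TEAD2 and TEAD4 each had 1 event, both skipped exons. The inclusion level of an event is the share of inclusion reads among its own inclusion and skipping reads. Junction and exon reads were used, corrected for effective length. Other forms of the gene do not enter this level, so it is not a share of all transcripts.

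The TEAD2 exon is shown because it is a microexon of 12 bases that keeps the reading frame. It is exon 5 of the 13 exons of the canonical transcript and is coding (chr19:49355959-49355970, minus strand, GRCh38). The exon is in capitals with 20 intron bases on each side (chr19:49355939-49355990).
TEAD2: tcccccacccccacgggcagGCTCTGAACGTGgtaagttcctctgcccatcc
Its inclusion level was 0.234, 0.647 and 0.407 in group 1 and 0, 0.155 and 0 in group 2. The groups did not overlap, but each value rests on 2 to 7 reads, so that 1 read moves a level widely.

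The TEAD4 exon is shown because it holds the annotated start of translation, which is a TTG and not an ATG codon. It is exon 3 of 13, 255 bases long (chr12:2994738-2994992, plus strand), of which 226 bases are coding (chr12:2994767-2994992). These coding bases are printed with the start codon in capitals.
TEAD4: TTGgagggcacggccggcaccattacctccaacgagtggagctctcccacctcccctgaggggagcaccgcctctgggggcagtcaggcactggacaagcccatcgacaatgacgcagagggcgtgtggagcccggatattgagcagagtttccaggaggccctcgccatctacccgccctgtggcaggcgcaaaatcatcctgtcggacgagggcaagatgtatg
Its inclusion level was 0.876, 0.926 and 0.719 in group 1 and 1.0, 1.0 and 0.929 in group 2. The groups all but touched at replicate 2 of group 1 and replicate 3 of group 2, and the levels rest on 38 to 79 reads per library, of which 3, 1 and 7 in group 1 and 0, 0 and 2 in group 2 were skipping reads.

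Among the 23 upstream genes NF2, which encodes merlin, had 2 events that share their first base, 45 and 60 bases long (chr22:29683020-29683064 and chr22:29683020-29683079). Neither exon is in the canonical transcript. The 45-base exon was included at 0.935, 0.884 and 0.879 in group 1 and at 0.806, 0.561 and 0.69 in group 2, from 33 to 54 reads per library. The 60-base form was included at 0.672, 0.653 and 0.657 in group 1 and at 0.354, 0.186 and 0.296 in group 2, from 8 to 24 reads. Both NF2 events were lower in group 2 in every library, and they share their skipping reads, so they are not independent. Of the further targets only AXL had an event, with overlapping groups at 2 to 8 reads per library.

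**Figure D4:**
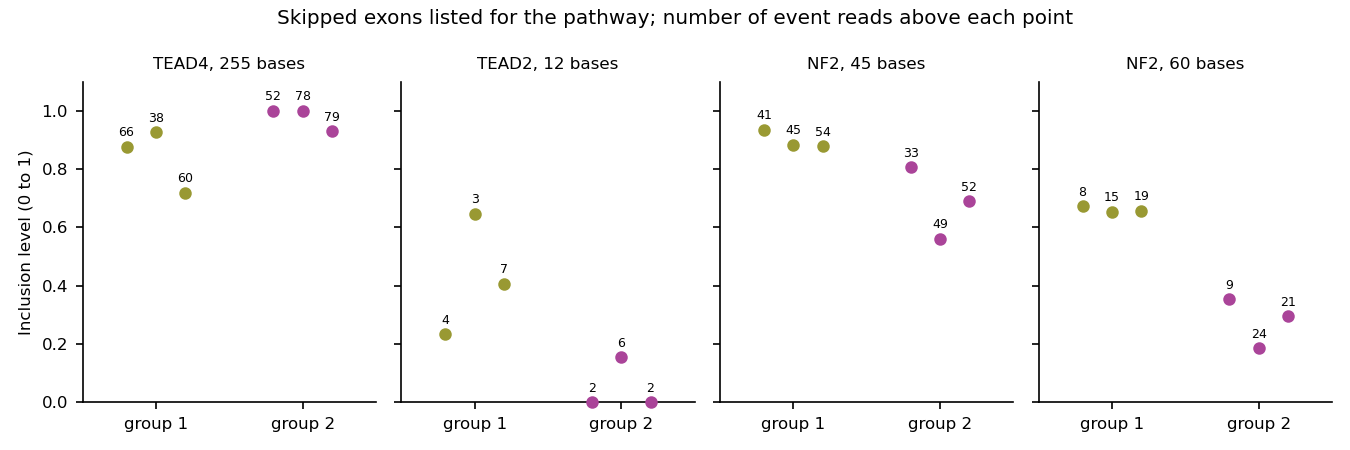
Inclusion level (y axis, 0 to 1) of the skipped exons listed for TEAD4, TEAD2 and NF2 in the 3 libraries of group 1 and of group 2 (points), with the number of reads behind each point above it. TEAD4 is higher in group 2, and TEAD2 and both NF2 forms are lower there, with TEAD2 resting on 2 to 7 reads.

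Across the settings tried, TEAD2 stayed between 0.25 and 0.51 on the log2 scale, TEAD3 between -0.63 and -0.44, TEAD4 between -0.38 and -0.21 and CTGF between -0.70 and -0.39. The range was -0.30 to -0.12 for AMOTL2. YAP1, WWTR1, TEAD1 and CYR61 had values on both sides of 0.

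**Figure D5:**
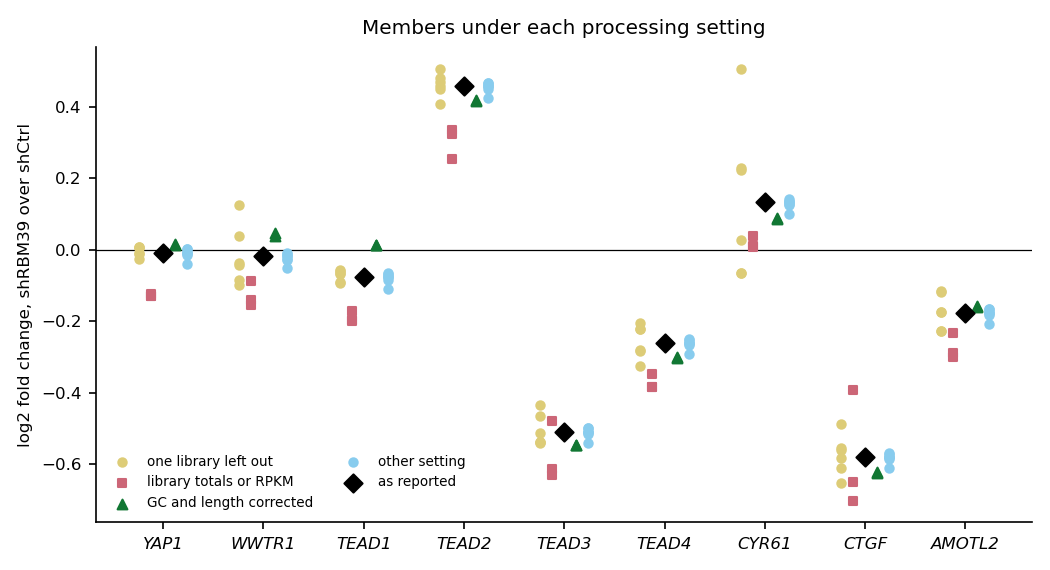
Log2 fold change of shRBM39 over shCtrl (y axis) for the 9 tested members (x axis) as reported (diamonds) and under each other setting (coloured points: one library left out, library totals or RPKM, GC and length correction, other). TEAD2 stays above 0, TEAD3, TEAD4, CTGF and AMOTL2 stay below 0, and YAP1, WWTR1, TEAD1 and CYR61 have points on both sides of the line at 0.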

How the data were processed

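mRNA of SW480 cells was sequenced in 6 libraries, grouped by the sample titles, with the table's NC columns read as shCtrl, the only control group. Raw counts for each gene symbol, summed over merged exons, were deposited by the authors, as were RPKM values, which could be recomputed from the counts to a relative difference of 1.2e-13. The submitters' processing notes name Trimmomatic 0.36, STAR 2.5.3a, featureCounts, Subread 1.5.1, edgeR 3.12.1 and GRCh38, without role or order. How unique identifiers, multi-mapped reads and strand were treated in counting is not given in the sources used here. The authors ran rMATS (version not given in the sources used here) and deposited inclusion and skipping reads with effective lengths, from which inclusion levels were computed; the deposited p-values, FDR, levels and differences of that table were not used.

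Counts were tested in edgeR 4.0.16 (R 4.3.3) with filterByExpr, TMM, glmQLFit and glmQLFTest on all 6 libraries with group as the only term, and adjusted by Benjamini-Hochberg over 18243 genes at 0.05. Standard errors come from the fold change and its F statistic. The fits were also run on simulated counts with the same dispersion for every gene and few changed genes. In these data 59.1% of tested genes were called, so that run does not show how the fits perform here. Ratios and levels were computed per library with scipy 1.17.1. Alternatives used DESeq2 1.42.0, limma 3.58.1 on log2(RPKM + 1) and log2(RPKM + 0.1), other scalings and filters, a loess correction for GC content and exon length, a replicate block, single libraries left out, and other thresholds. Libraries of a group differed by more than counting noise (chi-square per degree of freedom 2.11 to 4.21), so none was counted as a repeat of another. The members and both other gene lists were chosen with earlier results of these data known. All members were named, and of each other list the 5 called genes of largest absolute log2 fold change and those not tested. A further marker gene is not reported here. Promoter letters come from the RefSeq table on GRCh38.p14 and exon sequences from GRCh38 with GENCODE annotation.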

Additional observations from a re-analysis of the deposited data

How the results depend on the processing

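With 3 libraries a group, changes near the spread between libraries were not resolved, and CYR61 and ANKRD1 were limited by their counts. Tested with edgeR against a log2 fold change of 0.5, 2232 genes were called in all, 0 members, 1 upstream gene and 2 further targets. In that test 0 members had an unadjusted p under 0.05, and DESeq2, tested against 0, called 4 members. The number of members called was 4 to 7 under the other alternatives, beside 5 as reported. RBM39, WWC3, GADD45A and CRIM1 kept direction and call in all 18 alternatives. TGFB2 was left out by the filter of at least 10 counts in every library and has no value there.

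The uncalled members changed sign as follows, and the cause was not tested. YAP1 was 0.001 with DESeq2, 0.002 with no filter on low counts, 0.015 after the GC and length correction and 0.014 with that correction and the replicate block. WWTR1 was 0.048 and 0.037, and TEAD1 0.013 and 0.014, after the correction without and with the block. With single libraries left out, YAP1 ran from -0.025 to 0.007, WWTR1 from -0.098 to 0.125 and CYR61 from -0.066 to 0.507. The log2 ratio of YAP1 to WWTR1 differed by -0.0074 after the correction and by -0.12 to 0.14 with single libraries left out. Scaling to library totals moved the median of all genes to -0.14 and the share of called genes that were higher from 49.4% to 33.9% (33.6% on both RPKM scales).

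The replicate numbers shared by the groups did not pair the libraries (correlations of -0.003, -0.079 and 0.037 between same-numbered deviations over 9755 genes). The fit with the replicate block called 10810 genes, 5 members, 12 upstream genes and 11 further targets, beside 10790, 5, 12 and 11 without it, and with the GC and length correction added it called 4 members, without AMOTL2.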
